A study of Homo sapiens with 6 samples.

Results

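The 9 genes described here encode parts of the MHC class I antigen presentation pathway: the heavy chains HLA-B, HLA-C, HLA-E and HLA-F, the light chain B2M, the peptide transporter subunits TAP1 and TAP2, the loading factor TAPBP (tapasin) and the peptide-trimming enzyme ERAP1. They were taken by gene symbol from the deposited count table, which held all 9 among its 20503 genes, and all 9 were among the 15961 genes that passed the filter on low counts. Other class I heavy chain genes are not analysed here. The table covers 6 poly(A) RNA libraries of human breast cancer cells in culture. T47D-TR (3 libraries) is a tamoxifen-resistant subline that was derived from T47D and kept in medium with 1 µM 4-hydroxytamoxifen, an active metabolite of tamoxifen. T47D (3 libraries) is the parental line, labelled as ER-positive, with no drug named for its medium. Subline and drug changed together, so their effects cannot be told apart. Nothing in the labels tells if replicates were grown as separate cultures, so p-values reflect only how far these samples spread, and that spread may be technical.

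Class I molecules show peptides from the inside of a cell to CD8 T cells and natural killer cells. Proteasomes and cytosolic peptidases cut proteins into peptides, the TAP1-TAP2 transporter carries them into the endoplasmic reticulum, ERAP1 and ERAP2 trim them, and tapasin with its partner chaperones holds an empty heavy chain and B2M next to the transporter until a peptide binds. HLA-B and HLA-C are classical heavy chains that present many peptides, whereas HLA-E presents mainly leader peptides of other class I chains to receptors of natural killer cells, and HLA-F is a little-expressed non-classical chain. The genes are induced by interferons and, at the class I promoters, by the transactivator NLRC5 acting through a conserved set of short promoter elements.

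The promoters of HLA-B, HLA-C, B2M and TAP2 are shown because these genes of one pathway differed in how they changed between the cultures. Sequences are from RefSeq (GRCh38.p14), which held a promoter window for 8 of the 9 members and none for HLA-E. Each runs from 200 to 45 bases before the RefSeq start, on the gene's own strand: chr6:31357224-31357379, minus strand, for HLA-B; chr6:31272137-31272292, minus strand, for HLA-C; chr15:44711317-44711472, plus strand, for B2M; and chr6:32838784-32838939, minus strand, for TAP2. Capitals mark matches, on either strand, to GAAANNGAA or GAANNGAAA (repeats bound by interferon regulatory factors), GGGATTCCC (a κB element), TGACG (a half-site of cAMP response elements) and CCAAT.
HLA-B: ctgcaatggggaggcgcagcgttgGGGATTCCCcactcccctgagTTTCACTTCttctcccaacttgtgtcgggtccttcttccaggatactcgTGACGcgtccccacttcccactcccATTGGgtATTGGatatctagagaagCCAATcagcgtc
HLA-C: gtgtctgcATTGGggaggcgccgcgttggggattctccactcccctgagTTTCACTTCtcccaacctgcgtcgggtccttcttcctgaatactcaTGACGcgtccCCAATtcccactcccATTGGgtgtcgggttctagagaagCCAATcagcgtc
B2M: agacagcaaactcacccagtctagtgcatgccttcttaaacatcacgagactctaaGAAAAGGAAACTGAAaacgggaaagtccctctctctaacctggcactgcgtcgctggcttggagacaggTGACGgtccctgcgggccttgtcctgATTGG
TAP2: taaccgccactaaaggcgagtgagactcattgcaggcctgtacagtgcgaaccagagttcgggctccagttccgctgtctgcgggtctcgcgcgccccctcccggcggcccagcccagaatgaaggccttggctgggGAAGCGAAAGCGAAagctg

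These motifs were chosen after the sequences were seen, and a match is a description, not a known site. In the 250 bases before a start, GAAANNGAA or GAANNGAAA was found in at least 1 window of 8 of 8 members with a window (7 of 8 in the first window listed), and in 12.4% of the 35116 windows of all genes. The repeats can overlap, as they do in B2M and TAP2. Among the 8, GGGATTCCC was found in HLA-B alone, and 0.362% of all windows held it. The half-site TGACG stood in 4 of the 8 members (HLA-B, HLA-C, B2M and TAP2, where it lies 35 bases before the start and so outside the stretch shown), against 21.2% of all windows, and CCAAT in 6 of 8, against 32% of all windows. All 4 genes shown thus held a repeat and the half-site, and they include 1 gene that rose in T47D-TR (B2M), 2 that fell (HLA-B and TAP2) and 1 that was not called (HLA-C). The half-site was absent from the windows of HLA-F, TAP1, TAPBP and ERAP1, which were not called. HLA-E, which was called higher, had no window, so the half-site and the calls cannot be compared over all members. Whether the motifs bear on the change was not tested.

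The libraries held 17199315 to 19867230 counts (T47D-TR) and 18315735 to 19305594 counts (T47D), so that 3 counts correspond to 0.153 to 0.178 CPM (counts scaled to library size) in a library. T47D-TR replicate 3 stood apart: a chi-square test of counts gave 8.36 and 9.58 per gene when it was paired with replicates 1 and 2, 2.79 between those, and 1.83 to 2.24 among T47D libraries. Of 6 tested luminal markers 4 were called higher and 2 lower in T47D-TR, by the test given below. Of all tested genes 63.0% were called. The keratin gene KRT8 stood at 1580 ± 120 CPM in T47D-TR and 1338 ± 26.0 CPM in T47D (SD, n = 3 each). KRT19, also higher, stood at 112 ± 3.62 CPM in T47D-TR and 27.8 ± 1.23 CPM in T47D. KRT18 stood at 928 ± 90.2 and 683 ± 18.7 CPM in T47D-TR and T47D, and FOXA1 at 10.7 ± 1.05 and 5.64 ± 0.500 CPM. The luminal markers that were lower were EPCAM, at 14.7 ± 2.25 CPM in T47D-TR and 38.6 ± 0.587 CPM in T47D, and GATA3, at 0.625 ± 0.0774 CPM in T47D-TR and 1.23 ± 0.140 CPM in T47D. ESR1, the gene of oestrogen receptor alpha, was detected with 2, 4 and 3 counts in T47D-TR and 3, 0 and 2 counts in T47D, near the detection limit in both although the label is ER-positive. Of 9 leukocyte markers 6 were in the table, with summed levels of 57.4 to 75.7 CPM in T47D-TR and 24.2 to 27.8 CPM in T47D, nearly all from CD68, a lysosomal protein gene. PTPRC, which encodes the pan-leukocyte antigen CD45, had 1, 0 and 1 counts in T47D-TR and 2, 2 and 2 counts in T47D. Of the 2 leukocyte markers tested, CD68 was called higher and CD8A lower in T47D-TR. CD8A stood at 0.558 ± 0.0869 CPM in T47D-TR and 1.41 ± 0.147 CPM in T47D. The fibroblast genes COL1A2 and DCN had 22 and 19 counts in T47D-TR replicate 3, at most 4 in the other T47D-TR libraries and 0 in each T47D library. LUM, another fibroblast marker, had 6, 3 and 5 counts in T47D-TR and 269, 232 and 286 counts in T47D, PDGFRB stood at 3.58 ± 0.313 CPM in T47D-TR and 5.72 ± 0.103 CPM in T47D, and COL1A1 was not called. The 5 fibroblast markers summed to 20.3 to 24.6 CPM in T47D-TR and 36.4 to 39.8 CPM in T47D. Of the endothelial markers, PECAM1 stood at 27.3 ± 3.81 CPM in T47D-TR and 0.669 ± 0.0287 CPM in T47D, while VWF had at most 4 counts in a library. What part these genes' cells of origin have in the results was not tested.

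In T47D-TR, 2 of the 9 members rose, 2 fell and 5 were not called, by edgeR's quasi-likelihood test over all tested genes (call: Benjamini-Hochberg adjusted p under 0.05). B2M rose 1.71-fold and HLA-E 1.32-fold, whereas TAP2 and HLA-B fell to 0.61 and 0.62 of their T47D levels. Calls were common in this comparison: 63.0% of all tested genes were called, 32.5% as higher and 30.5% as lower in T47D-TR, so 4 calls among 9 members are no more than the background. The summed level of the 9 was 1055, 1067 and 1097 CPM in T47D-TR, against 818, 821 and 827 CPM in T47D, and most of it was B2M. The CPM values of the groups did not overlap for 5 of the 9 members, beside 68.3% of all tested genes. The members' median log2 fold change was 0.01 and the median size of their change 0.25, beside 0.0019 and 0.36 over all tested genes. In these bulk samples a change in RNA per cell and a change in the share of expressing cells cannot be told apart.

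**Figure D1:**
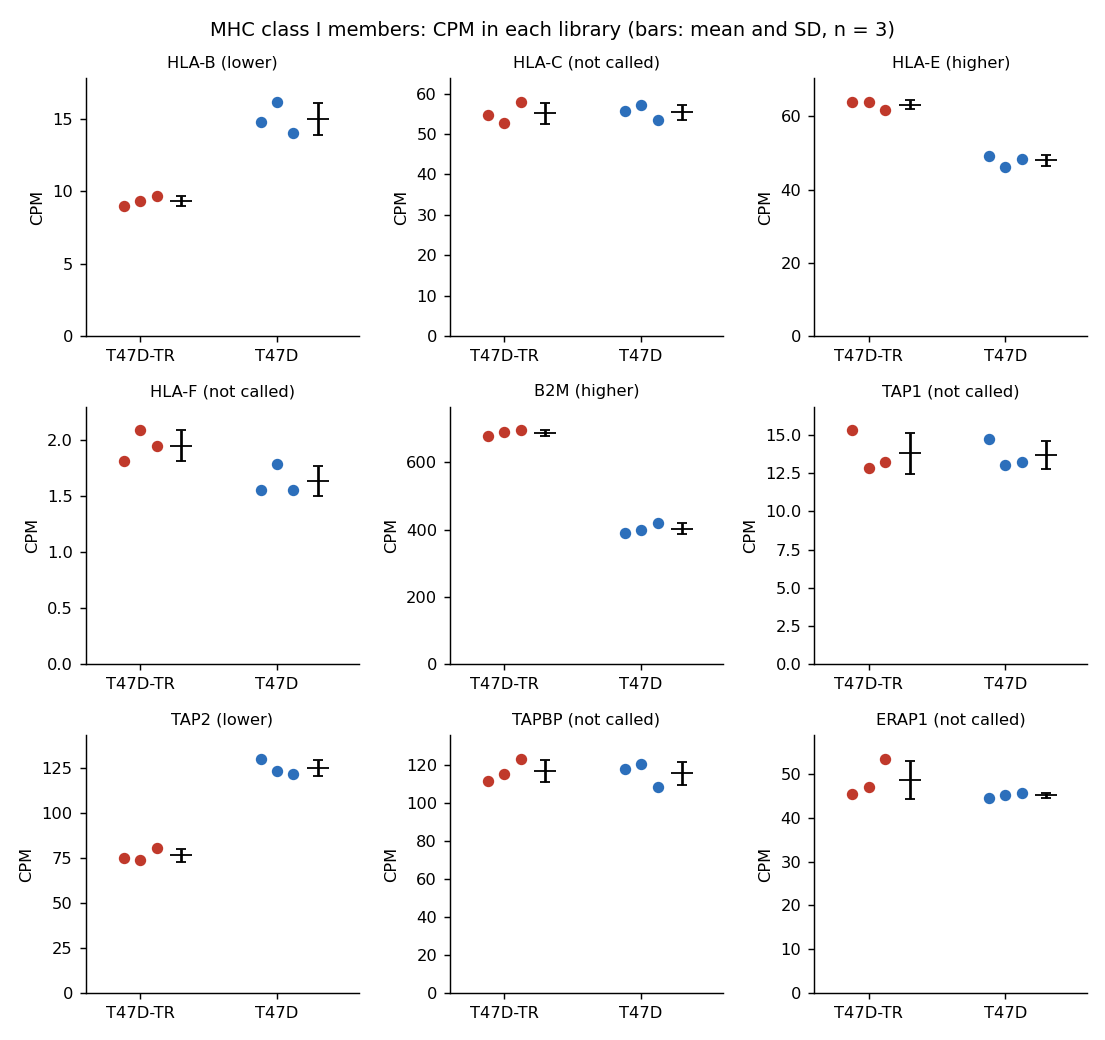
CPM (vertical axes, each from 0) of the 9 members in the 3 libraries of T47D-TR (red, left) and the 3 of T47D (blue, right); black bars give the mean and SD. The groups are apart for HLA-B, HLA-E, HLA-F, B2M and TAP2 and overlap for HLA-C, TAP1, TAPBP and ERAP1.

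HLA-B, a classical heavy chain gene (chromosome 6, 31353875 to 31357179, GRCh38, 8 exons), had 8.97, 9.33 and 9.65 CPM in T47D-TR, against 14.8, 16.2 and 13.99 CPM in T47D. The groups did not overlap. It fell by 0.69 on the log2 scale (SE 0.07, 95% interval -0.89 to -0.48, edgeR adjusted p = 4.5e-05). HLA-C (chromosome 6, 31268749 to 31272092), the other classical chain, had 54.7, 52.8 and 58.0 CPM in T47D-TR and 55.7, 57.1 and 53.4 CPM in T47D. Its groups overlapped, with a log2 fold change of -0.01 (95% interval -0.13 to 0.12, edgeR adjusted p = 0.92). A change of HLA-C within these bounds is not excluded at this depth and number of libraries.

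HLA-E, whose product engages natural killer cell receptors (chromosome 6, 30489509 to 30494194), had 63.9, 64.0 and 61.9 CPM in T47D-TR, against 49.3, 46.3 and 48.5 CPM in T47D. Each T47D-TR library lay above each T47D library, with a log2 fold change of 0.40 ± 0.03 (SE; edgeR adjusted p = 2.7e-05). HLA-F (chromosome 6, 29723434 to 29738532) had the fewest counts of the members, with 1.81, 2.09 and 1.95 CPM in T47D-TR and 1.56, 1.79 and 1.55 CPM in T47D. These are 33 to 41 counts a library in T47D-TR and 29 to 35 in T47D. The groups just failed to overlap, and the log2 fold change of 0.25 was not called (95% interval -0.19 to 0.70, edgeR adjusted p = 0.30). With quantile normalization and voom it was 0.08 (adjusted p = 0.76). HLA-F-AS1, an antisense gene that overlaps HLA-F, stood at 1.117 and 0.583 CPM in T47D-TR and T47D (log2 fold change 0.93, edgeR adjusted p = 0.016), and the strand setting of the counting is unknown, so that reads of this pair may be mixed.

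Class I heavy chain genes are highly polymorphic and alike in sequence, and they have many pseudogene copies. The sources used here do not say how reads that match several of them were counted, and reads of the cells' own alleles were aligned to the reference genome, so the division of reads among HLA-B, HLA-C, HLA-E and HLA-F is uncertain. Within these 4 genes HLA-B took 6.93% to 7.34% of the counts in T47D-TR libraries and 11.9% to 13.3% in T47D libraries. HLA-E took 47.1% to 49.9% in T47D-TR and 38.2% to 41.3% in T47D, and HLA-C took 41.2% to 44.1% in T47D-TR and 45.5% to 47.05% in T47D. The shares of HLA-B and HLA-C were lower, and that of HLA-E higher, in each T47D-TR library than in any T47D library. These are shares of counts, not per length, and the GENCODE model of HLA-B also overlaps HLA-C on the same strand.

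B2M, the invariant light chain of class I molecules, lies outside the MHC (chromosome 15, 44711517 to 44718145). It had 679, 690 and 695 CPM in T47D-TR, against 390, 398 and 421 CPM in T47D, which are 11742 to 13539 and 7237 to 7851 counts a library. The groups lay far apart relative to their SDs of 8.64 CPM (T47D-TR) and 16.1 CPM (T47D). Its log2 fold change was 0.77 ± 0.03 (SE; 95% interval 0.69 to 0.86, edgeR adjusted p = 8.3e-09), and 20.7% of tested genes had a larger change.

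Of the transporter subunits, TAP2 was called and TAP1 was not. TAP2 (chromosome 6, 32821831 to 32838739) had 74.7, 73.9 and 80.4 CPM in T47D-TR, against 129.97, 123 and 122 CPM in T47D. All T47D-TR libraries lay below all T47D libraries, and TAP2 fell by 0.71 on the log2 scale (SE 0.05, edgeR adjusted p = 1.5e-07). TAP1, its partner subunit (chromosome 6, 32845209 to 32853704), had 15.3, 12.8 and 13.2 CPM in T47D-TR and 14.7, 13.0 and 13.2 CPM in T47D. The TAP1 groups overlapped, with a log2 fold change of 0.01 (95% interval -0.20 to 0.23, edgeR adjusted p = 0.91). In GENCODE, TAP1 overlaps PSMB8-AS1 and PSMB9 on the opposite strand and TAP2 overlaps another coding gene model on its own strand, so that reads in the shared stretches cannot be assigned with certainty.

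TAPBP, the tapasin gene (chromosome 6, 33299694 to 33314078), had 112, 115 and 123 CPM in T47D-TR and 118, 120.3 and 108 CPM in T47D, and the groups overlapped. Its log2 fold change was 0.01 (95% interval -0.11 to 0.13, edgeR adjusted p = 0.84). ERAP1 (chromosome 5, 96760813 to 96935854) had 45.4, 47.1 and 53.5 CPM in T47D-TR and 44.6, 45.3 and 45.7 CPM in T47D. T47D-TR replicate 3 held the highest of these values, and the log2 fold change of 0.10 was not called (95% interval -0.04 to 0.25, edgeR adjusted p = 0.19). Without that library it was 0.03, and with voom 0.06. It overlaps CAST, ERAP2 and LNPEP on the opposite strand in the annotation, of which CAST, named here after its values were seen, stood at 222 and 165 CPM in T47D-TR and T47D (log2 fold change 0.42, edgeR adjusted p = 5.0e-06).

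**Figure D2:**
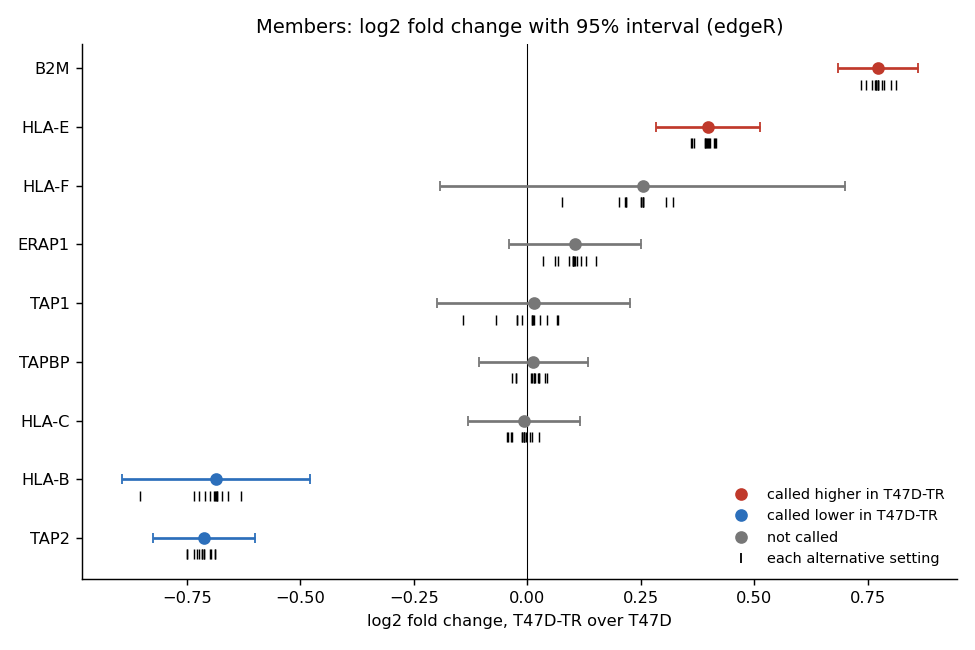
Log2 fold change of T47D-TR over T47D (horizontal axis) for the 9 members, with points and bars for the edgeR estimate and its 95% interval and ticks for the 13 alternative settings (12 for HLA-F, which the filter at a mean CPM of 5 removed). B2M at 0.77 and HLA-E at 0.40 lie to the right of 0, HLA-B at -0.69 and TAP2 at -0.71 to the left, and the intervals of the other 5 members include 0.

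Per kilobase of the GENCODE v29 principal transcript, B2M stood highest, at 404 ± 5.07 CPM in T47D-TR and 236 ± 9.44 CPM in T47D (SD). TAPBP followed at 61.8 ± 3.11 and 61.1 ± 3.28 CPM per kilobase in T47D-TR and T47D, and HLA-F was lowest at 1.19 ± 0.0845 and 1.00 ± 0.0820. The order was B2M, TAPBP, HLA-C, TAP2, HLA-E, ERAP1, HLA-B, TAP1, HLA-F in T47D-TR and B2M, TAPBP, TAP2, HLA-C, HLA-E, HLA-B, ERAP1, TAP1, HLA-F in T47D. TAP2 and HLA-C changed places, at 30.6 ± 1.42 and 35.9 ± 1.71 CPM per kilobase in T47D-TR and 50.1 ± 1.76 and 36.1 ± 1.22 in T47D, and so did HLA-B and ERAP1. In all 8 neighbouring pairs of each order the gap exceeded the sum of both SDs. The annotation used for counting is not given, so levels per length are approximate.

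Ratios of counts within a library do not depend on how libraries are scaled. B2M counts were 5.24, 5.39 and 5.29 times the sum of the 4 heavy chain members in T47D-TR, against 3.21, 3.28 and 3.58 times in T47D. HLA-B had 0.164, 0.177 and 0.166 counts per count of HLA-C in T47D-TR, against 0.265, 0.283 and 0.262 in T47D. TAP1 had 0.205, 0.174 and 0.164 counts per count of TAP2 in T47D-TR, against 0.113, 0.106 and 0.109 in T47D. The groups were apart in these 3 ratios and in those of HLA-B over HLA-E, PSMB8 over PSMB5 and PSMB10 over PSMB7. Each of these 6 had a 2-sided exact permutation p = 0.1, the smallest that 3 against 3 libraries can give, and an adjusted p = 0.17 over the 10 ratios computed. HLA-F over HLA-E (exact permutation p = 0.4), TAPBP over the heavy chains (p = 0.2), TAP1 over PSMB9 (p = 0.4) and PSMB9 over PSMB6 (p = 0.8) overlapped between groups.

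**Figure D3:**
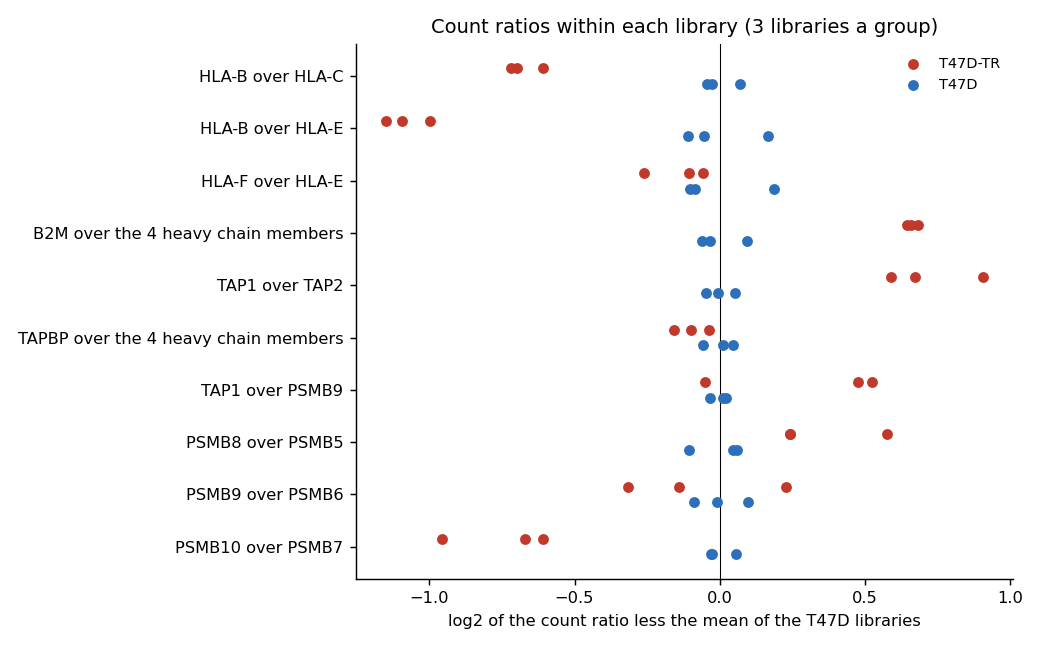
Log2 of 10 count ratios within each library, less the mean of the T47D libraries (horizontal axis), for T47D-TR (red, upper row of each pair) and T47D (blue, lower row). The T47D-TR points of B2M over the heavy chains and of TAP1 over TAP2 lie to the right of all T47D points, and those of HLA-B over HLA-C and over HLA-E to the left.

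The members' genomic setting was compared with their change. HLA-F, HLA-E, HLA-C, HLA-B, TAP2, TAP1 and TAPBP lie in the MHC on chromosome 6, and the stretch from HLA-F to TAPBP (29723434 to 33314078, GRCh38) held 113 tested genes. Of the 106 that are not members, 39 were higher and 26 lower in T47D-TR (61.3% called, against 63.0% of all tested genes), with a median log2 fold change of 0.07. TAP2 and PSMB8, which lie next to each other, had log2 fold changes of -0.71 and -0.14, and HLA-B and HLA-C, with 1 tested gene between them, of -0.69 and -0.01. Whether neighbouring genes differed in their change was not tested.

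**Figure D4:**
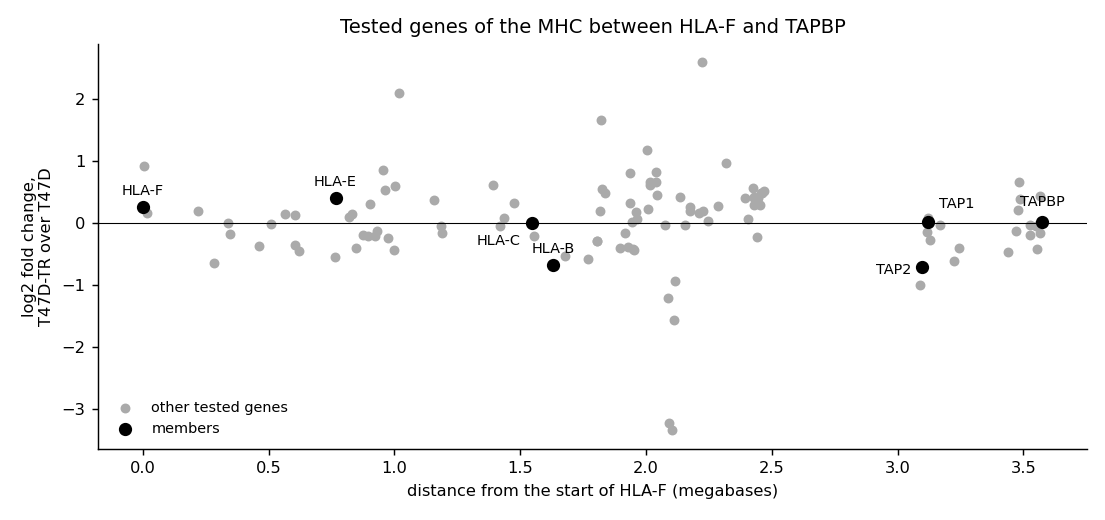
Log2 fold change of T47D-TR over T47D (vertical axis) for the 113 tested genes between HLA-F and TAPBP, by distance from the start of HLA-F (horizontal axis, megabases). The 7 members (black, named) lie between -0.71 and 0.40, among other genes (grey) on both sides of 0.

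The gene nearest in pattern to each member was taken by the root mean square difference of log2 CPM, less the T47D mean, over the 6 libraries. For B2M it was the apoptosis regulator gene CFLAR, at a distance of 0.020, and for HLA-E it was VAT1, at 0.018. For HLA-B it was the mitochondrial ribosomal protein gene MRPS26, at 0.024, and for TAP2 the ribosome biogenesis gene NOP14, at 0.022. The nearest genes to HLA-C, TAP1, TAPBP, ERAP1 and HLA-F were RPL18AP3, TBCCD1, CSTF2T, PEMT and TMEM55A, at 0.013 to 0.035. Such neighbours are many: 256 non-member genes lay within 0.1 of B2M and 1384 within 0.1 of HLA-C.

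Around the members, 10 lists of other antigen presentation and interferon genes held 105 genes, of which 92 were in the table and 86 were tested. Of these 29 rose in T47D-TR, 24 fell and 33 were not called, a share of 61.6% called beside 63.0% over all tested genes, and their median log2 fold change was -0.02. Without T47D-TR replicate 3, 30 of the list genes were called higher and 27 lower. Among the 6 genes of the immunoproteasome, the interferon-inducible form that favours peptides fit for class I, and of the PA28 family of proteasome activators, 3 fell and 3 were not called (median -0.41). PSMB10, an immunoproteasome catalytic subunit, fell to 4.88 ± 0.605 CPM in T47D-TR, against 8.51 ± 0.115 CPM in T47D. PSME2, which encodes a subunit of the interferon-inducible PA28 activator, fell by 0.55 on the log2 scale. PSME3, which encodes the nuclear activator PA28 gamma and is not known as an interferon-induced gene, also fell by 0.55. PSMB8, at 16.4 ± 0.835 and 18.04 ± 1.67 CPM in T47D-TR and T47D, and PSMB9, at 1.37 ± 0.254 and 1.67 ± 0.0964 CPM, encode the other catalytic subunits of the immunoproteasome and were not called (edgeR adjusted p = 0.20 and 0.31), although quantile normalization with voom called PSMB8 lower (log2 fold change -0.26, adjusted p = 0.024). The log2 fold change of PSMB9, -0.28, was -0.45 with voom, -0.43 without T47D-TR replicate 2 and -0.17 without T47D-TR replicate 3. Of the constitutive counterparts, PSMB5 fell by 0.48 and PSMB6 by 0.23, and PSMB7 was not called at -0.07.

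In the endoplasmic reticulum, 3 of 7 loading partners rose and 1 fell (median 0.03). ERAP2, the second trimming enzyme, rose to 42.5 ± 3.29 CPM in T47D-TR, against 31.4 ± 1.95 CPM in T47D. UGGT1, a folding sensor, rose by a log2 fold change of 0.51 and PDIA3, the disulphide isomerase bound to tapasin, by 0.21. The chaperone gene CANX, calnexin, fell by 0.17, a call that ended with quantile normalization. Of the 7 genes listed as cytosolic peptidases 4 fell and 2 rose (median -0.37), and LNPEP among them encodes a membrane-bound enzyme. LAP3, an interferon-inducible leucine aminopeptidase, fell to 35.8 ± 3.71 CPM in T47D-TR, against 62.2 ± 3.94 CPM in T47D. BLMH and THOP1 fell by 0.46 and 0.40, LNPEP rose by 0.41, and NRDC, listed in the table as NRD1, rose by 0.11 with an edgeR adjusted p = 0.024 that 7 of the 13 alternatives did not keep under 0.05.

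Factors that act on class I promoters went both ways, with 5 of 13 higher and 3 lower (median -0.02). NLRC5, the class I transactivator, fell to 23.98 ± 1.66 CPM in T47D-TR, against 31.5 ± 2.39 CPM in T47D (log2 fold change -0.39, edgeR adjusted p = 0.00083). NFYC, a subunit of the CCAAT-binding factor, fell by 0.46 and NFKB1 by 0.44. CREB1 and ATF1, which bind cAMP response elements, rose by 0.38 and 0.39, and RFXAP by 0.35, a call that ended with quantile normalization and voom (0.21, adjusted p = 0.079). IRF1, an interferon-induced activator of class I genes named here after its values were seen, rose to 21.9 ± 1.89 CPM in T47D-TR, against 17.3 ± 0.221 CPM in T47D.

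Of 11 interferon receptor and JAK-STAT genes tested 5 rose and 1 fell (median 0.15). The interferon gamma receptor gene IFNGR2 stood at 60.4 ± 2.0 CPM in T47D-TR and 35.99 ± 1.52 CPM in T47D, and the signal transducer gene STAT2 at 31.6 ± 3.58 and 20.7 ± 0.735 CPM. SOCS3, a feedback inhibitor, was called at 0.53 (edgeR adjusted p = 0.020) with overlapping groups, and lost the call under 6 of the 13 alternatives. IFNAR1, a type I interferon receptor gene, was called lower at -0.12 (edgeR adjusted p = 0.043) and lost the call under 9. Interferon-stimulated genes were split, with 6 of 19 higher, 5 lower and 8 not called (median 0.14). OAS1, an antiviral RNA sensor gene, stood at 18.1 ± 0.339 CPM in T47D-TR and 2.74 ± 0.613 CPM in T47D, and IFIT1 at 14.5 ± 0.840 and 5.93 ± 0.686 CPM. IFIH1, which encodes the RNA sensor MDA5, went the other way at 0.606 ± 0.0707 CPM in T47D-TR and 4.70 ± 0.935 CPM in T47D, as did USP18, at 2.92 ± 0.264 and 6.60 ± 0.268 CPM. IFIT2 rose by a log2 fold change of 1.15 and OAS2 fell by 0.59.

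Genes of class I-like molecules and of ligands of NKG2D, an activating receptor of natural killer and T cells, had the highest median of the 10 lists, 0.88 on the log2 scale. Of 11 tested 7 rose, 3 fell and 1 was not called, where 63.0% of all tested genes were called. RAET1G rose to 6.22 ± 1.16 CPM in T47D-TR, against 1.13 ± 0.349 CPM in T47D, and RAET1E to 17.8 ± 1.42 CPM in T47D-TR, against 3.94 ± 0.179 CPM in T47D. Both encode NKG2D ligands, as do ULBP1 and ULBP2, which rose by log2 fold changes of 1.28 and 0.28. MICA, MICB and ULBP3, which also encode NKG2D ligands, fell, and the ligand gene RAET1L was not called. ULBP1, ULBP2 and RAET1L are named here after their values were seen. MICA stood at 30.6 ± 5.08 CPM in T47D-TR and 44.3 ± 0.362 CPM in T47D, MICB at 23.8 ± 3.0 and 35.7 ± 2.06 CPM, and ULBP3 at 3.74 ± 0.543 and 7.17 ± 0.611 CPM. The members of each of these families are alike in sequence, so the division of reads among them is uncertain. PROCR, the protein C receptor gene with a class I-like fold, rose to 33.1 ± 2.12 CPM in T47D-TR, against 10.1 ± 1.74 CPM in T47D.

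**Figure D5:**
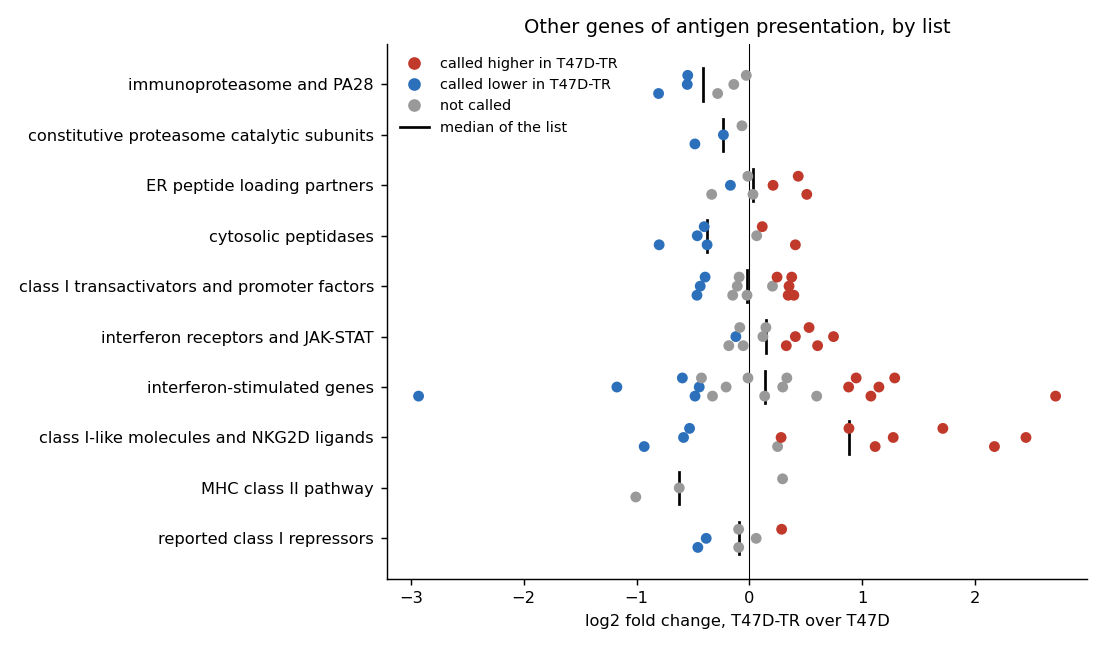
Log2 fold change of T47D-TR over T47D (horizontal axis) for the 86 tested genes of 10 lists, coloured by their edgeR call, with a black line at the median of each list. Class I-like molecules and NKG2D ligands have the highest median, 0.88, and span -0.93 to 2.45.

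MHC class II genes serve presentation by professional antigen-presenting cells. Of 13 listed 5 were in the table and 3 were tested: CIITA, HLA-DMA and HLA-DOB. None was called by edgeR (adjusted p = 0.26, 0.086 and 0.051) or DESeq2, HLA-DOB alone had an unadjusted edgeR p under 0.05, and voom called HLA-DMA (adjusted p = 0.042). HLA-DRA had 0, 0 and 7 counts in T47D-TR, the last in replicate 3, and 0 in each T47D library. CD74 of the same list, named here after its values were seen, had 4, 0 and 11 counts in T47D-TR. In T47D it had 5, 3 and 3 counts. The class II transactivator gene CIITA stood at 2.72 ± 0.740 CPM in T47D-TR and 2.24 ± 0.0750 CPM in T47D. Of 6 genes reported as repressors of class I expression 1 rose and 2 fell. EZH2, a histone methyltransferase gene, stood at 94.4 ± 2.22 CPM in T47D-TR and 129.5 ± 2.77 CPM in T47D, WWP2, a ubiquitin ligase gene, at 41.3 ± 1.91 and 53.8 ± 1.76 CPM, and TMEM127 at 63.7 ± 4.44 and 52.2 ± 2.75 CPM.

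The authors' deposited table gives a linear fold of T47D-TR over T47D of 1.70 for B2M, 1.31 for HLA-E, 0.619 for HLA-B and 0.608 for TAP2. These 4 members have a false discovery rate under 0.05 in the authors' deposited table, as have 44.4% of all its genes, and the other 5 do not. Without T47D-TR replicate 3, the edgeR log2 fold changes were 0.77 for B2M, 0.42 for HLA-E, -0.71 for HLA-B and -0.75 for TAP2, all still called.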

How the data were processed

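Poly(A) RNA of 3 T47D-TR and 3 T47D libraries was prepared with a directional kit, per the labels' protocols. The submitters' processing notes name HISAT2 2.1.0, GRCh38 and DESeq. The sources used here do not name the counting tool, its strand setting, the annotation or the DESeq version. The deposited values per library are read counts in whole numbers, despite a file name with FPKM in it. Beside them the authors deposited a normalized mean signal per group, a linear fold (ratio), its log2 fold change, a p-value and a false discovery rate. All columns of single libraries were used.

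Counts were scaled by TMM and tested with edgeR 4.0.16 (R 4.3.3; filterByExpr, minimum count 10, minimum total 15; quasi-likelihood F test, 2-sided) over the whole table, with Benjamini-Hochberg adjustment. CPM are counts per TMM-scaled library size; group values are mean ± SD. The SE of a log2 fold change comes from the spread of log2 CPM (prior count 2), and its 95% interval from the F statistic and its degrees of freedom. Intervals cover these libraries only. DESeq2 1.42.0 and limma 3.58.1 (voom) served as alternatives. The edgeR procedure was tested on simulated data, in which far fewer genes changed than were called here and no library stood apart. That test therefore does not show how the procedure performs on these libraries. Positions are from RefSeq, and transcript lengths and overlaps from GENCODE v29, all on GRCh38. The named genes were the members, up to 3 called genes at each end of each list, the nearest gene in pattern to each member, ratio partners and cell type markers. HLA-F-AS1, CAST, IRF1, ULBP1, ULBP2, RAET1L and CD74 were named after their values were seen. Members and lists were chosen with earlier results of these data known.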

Additional observations from a re-analysis of the deposited data

How the results depend on the processing

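All 13 alternatives (DESeq2 size factors, library size alone, quantile normalization with voom, DESeq2's Wald test, no filter, a mean CPM of at least 5, each library left out in turn, and the replicate block) kept B2M and HLA-E called higher and HLA-B and TAP2 called lower, and called none of the other 5 members, except that HLA-F was removed by the filter at a mean CPM of 5 and so has 12 values. The log2 fold changes ranged from 0.74 to 0.81 for B2M, 0.36 to 0.42 for HLA-E, -0.85 to -0.63 for HLA-B and -0.75 to -0.69 for TAP2. They ranged from 0.076 to 0.32 for HLA-F and 0.034 to 0.15 for ERAP1. Quantile normalization moved the median log2 fold change of all genes by -0.11 and the share of calls that were higher to 43.0%, against 51.6%. Members near 0 changed sign without a call: HLA-C to 0.0061 at a mean CPM of at least 5, TAP1 to -0.022 with library size alone and -0.14 with voom, and TAPBP to -0.024 with library size alone. With 1 library left out they ranged from -0.042 to 0.026 (HLA-C), -0.069 to 0.067 (TAP1) and -0.032 to 0.044 (TAPBP). Of their nearest genes in pattern, RPL18AP3 changed sign to 0.049 with voom and to 0.0077 with the CPM filter (-0.047 to 0.036 with 1 library left out), TBCCD1 to -0.012 with library size alone and -0.097 with voom (-0.049 to 0.074) and CSTF2T to -0.0037 with library size alone (-0.0070 to 0.066). The cause of these sign changes was not tested. Same-numbered libraries did not deviate together over all tested genes (r of -0.021 to -0.0051), so no pairing by number was seen. Whether same-numbered libraries shared a culture or a preparation is not known and was not tested. With the replicate block 5127 genes were called higher and 4827 lower, against 5186 and 4867 without it, and of the members 2 and 2 either way; the log2 fold changes of the members under the block were 0.77 (B2M), 0.40 (HLA-E), 0.25 (HLA-F), 0.10 (ERAP1), 0.012 (TAP1), 0.014 (TAPBP), -0.0073 (HLA-C), -0.68 (HLA-B) and -0.71 (TAP2). List genes called ranged from 25 to 30 higher and 21 to 31 lower over settings added after the data were seen. Depth limits HLA-F, PSMB9 and the class II genes, which had few counts.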
